A study of Rattus norvegicus with 6 samples.

Results

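*Smagp* encodes a small glycoprotein that spans the cell membrane once and sits at the contacts between epithelial cells. The corneal epithelium, the outer cell layer of the eye, is held together by such contacts. *Smagp* was chosen by its FPKM and counts in the comparison of diabetic with normal libraries, where it was lower in the diabetic ones, so its own difference is given as a description with no test. Of the 61453 loci in each table, 2 rows carry its name. One is the annotated protein coding locus on the minus strand of chromosome 7 (142244295 to 142261330, build rn6, locus MSTRG.41967). The other is a plus-strand fragment without an annotated type inside it (142252704 to 142254580, MSTRG.41968). The window of 100 kb on each side held 22 rows on both strands, that is 21 neighbours beside the annotated *Smagp* locus. Of these 21 rows, 8 have an annotated type and 13 do not. The named neighbours are *Tfcp2*, *Pou6f1* and *Dazap2* on the side of its 3′ end, and *Bin2*, *Cela1* and *Galnt6* on the side of its 5′ end.

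The libraries came from scraped corneal epithelium of male Brown Norway rats, 16 weeks after 1 intraperitoneal injection. The diabetic group (3 libraries) received streptozocin at 50 mg/kg, a toxin of the insulin-producing cells, and the normal group (3 libraries) received citrate buffer. The methods name 6 rats in all and 6 corneas per group, without saying how these were divided among the libraries. The abstract counts 3 diabetic rats and 3 normal groups, and the labels number the rats of each group from 1 to 3. None of them states that each library is 1 rat. The p-values below therefore measure the spread between these libraries, which may be partly technical. Total counts ran from 62288901 to 87040253 per library, and no pair of libraries correlated above 0.915 on the log2 scale. All 6 corneal epithelial markers were present, led by the corneal crystallin *Aldh3a1* and the keratin gene *Krt12*, and their summed FPKM ran from 15141 to 15463 in normal and from 14957 to 16732 in diabetic libraries. Summed FPKM of the 5 stromal markers found (*Lum*, *Kera*, *Dcn*, *Col1a1*, *Col5a1*) ran from 803 to 1029 in normal and from 709 to 796 in diabetic libraries. The stromal sum was therefore lower in all diabetic libraries, as *Smagp* was, and its part in the *Smagp* difference was not tested. Lens markers (6 of 6 found) summed to 78.6 to 225 FPKM in normal libraries, and to 102, 900 and 3.14 FPKM in diabetic replicates 1, 2 and 3. Conjunctival markers (3 of 4 found, *Muc5ac* not analysed here) summed to 870 to 1442 FPKM in normal and 550 to 1223 FPKM in diabetic libraries. *Krt19* of this list and *Krt14* of the corneal epithelial one are a single joined locus, counted in both sums, and *Krt5* and *Cd68* also lie on loci whose names join several genes. The 5 immune markers summed to 38.5 to 40.0 FPKM in normal and 36.9 to 47.6 FPKM in diabetic libraries. Within that sum *Cd14* was higher in all diabetic libraries (250% of the normal mean), as were 3.94% of all loci tested. *Cd74* was lower in all of them (53.5%), as were 5.72% of all loci tested. The limma adjusted p was 0.953 for each, and the DESeq2 adjusted p was 0.0768 for *Cd14* and 0.4 for *Cd74*. The part of these 2 genes in the *Smagp* difference was not tested. None of these markers was at 0 in all libraries, and only the stromal sums did not overlap between the groups.

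The start regions of *Smagp* and *Galnt6* are shown because these are the annotated genes of the window whose groups did not overlap, *Smagp* with lower and *Galnt6* with higher diabetic values. Each run holds the 250 bases before the RefSeq start of the gene, 5′ to 3′ on the minus strand of chromosome 7. The build is GRCr8, whose coordinates differ from those of rn6. Whether these starts are the 5′ ends of the counted loci was not checked. Capitals mark the GC box, GGGCGG or its reverse complement, CCGCCC. The boxes in the *Smagp* run read GGGCGG, and the one in the *Galnt6* run reads CCGCCC, so it lies on the opposite strand.
*Smagp*, chr7:133616328-133616577: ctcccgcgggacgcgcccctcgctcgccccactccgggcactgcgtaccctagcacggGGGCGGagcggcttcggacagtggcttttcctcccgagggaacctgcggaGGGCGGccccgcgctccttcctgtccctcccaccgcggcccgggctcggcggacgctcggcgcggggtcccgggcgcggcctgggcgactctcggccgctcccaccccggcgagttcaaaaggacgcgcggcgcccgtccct
*Galnt6*, chr7:133694285-133694534: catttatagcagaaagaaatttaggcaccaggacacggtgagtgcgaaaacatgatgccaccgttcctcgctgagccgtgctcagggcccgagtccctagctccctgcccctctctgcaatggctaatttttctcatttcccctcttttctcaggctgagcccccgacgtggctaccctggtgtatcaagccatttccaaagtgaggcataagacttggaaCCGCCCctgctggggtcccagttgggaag
The GC content of the *Smagp* run is 77.6%, and 98.0% of the 33469 rat promoters in the table have a lower one over the same 250 bases. The GC content of the *Galnt6* run is 54.8%. A GC box stands 192 and 142 bases before the start of *Smagp* and 29 bases before that of *Galnt6*, and 30.5% of all promoters hold it on either strand. The letters of the TATA box, searched as TATAAA on both strands, occur once in the *Galnt6* run and not in the *Smagp* run. That match is the reverse complement, TTTATA, at the end of the run farthest from the start of *Galnt6*. A match on either strand occurs in 12.9% of all promoters. These matches describe letters in a window and say nothing about binding in this tissue.

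The annotated *Smagp* locus had 2272, 2284 and 2320 counts in normal replicates 1, 2 and 3, and 997, 746 and 667 counts in diabetic replicates 1, 2 and 3. In FPKM, which scales counts by locus length and library size, it stood at 11.9, 12.3 and 11.7 in the normal and at 4.75, 4.93 and 4.27 in the diabetic libraries. The groups did not overlap, and the diabetic libraries lay close to each other. The lowest normal FPKM was 2.38 times the highest diabetic one, and the diabetic mean (4.65 ± 0.343 FPKM, SD, n = 3) was 38.8% of the normal mean. In CPM, counts scaled to the library total alone, it stood at 28.6 to 29.9 in normal and 10.4 to 12 in diabetic libraries. The 95% Wilson intervals of these shares, which cover counting error only, began at 27.5 CPM in normal libraries and ended at 12.9 CPM in diabetic ones. A count of 0 would still have allowed up to 0.0345 to 0.0482 CPM, and *Smagp* stood far above this floor in every library. Counts and FPKM of the locus implied the same length of 2.41 to 2.44 kb in all libraries, so both scales carry the same information. In bulk RNA, fewer cells that express *Smagp* and less of its RNA per cell cannot be told apart.

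**Figure D1:**
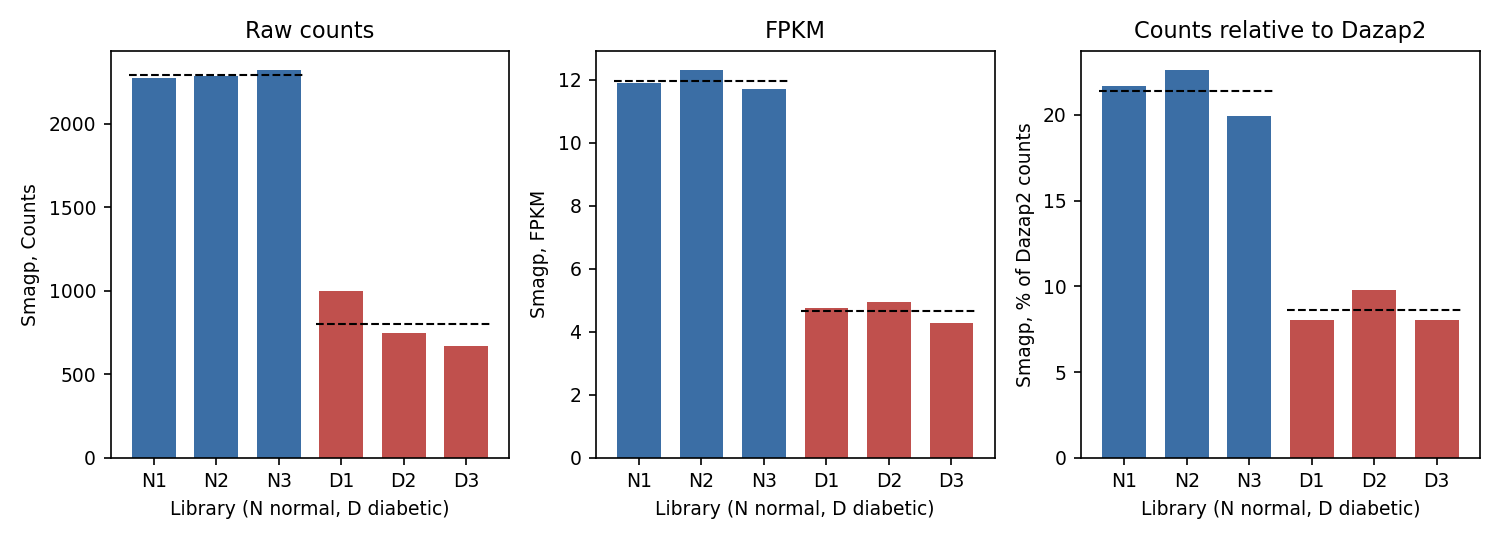
Raw counts, FPKM and counts as a percentage of *Dazap2* counts for the annotated *Smagp* locus; each bar is 1 library and the dashed lines are group means. The normal bars sit at 11.7 to 12.3 FPKM and the diabetic bars at 4.27 to 4.93 FPKM.

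On the log2(FPKM + 1) scale after quantile normalization, the difference of *Smagp* was −1.18 (limma SE 0.10, diabetic minus normal). It is 1 of the 11 loci, 0.0259% of the 42551 tested, that passed limma with an adjusted p below 0.05 and more than a 1.2-fold change, and 1 of 3 with lower diabetic values (0.00705%). This is the contrast that chose the gene, so these counts place it and support nothing further. Among the 11570 protein coding loci tested, *Smagp* FPKM exceeded 82.5% to 83.6% of them in normal libraries and 47.7% to 53.7% in diabetic ones. It did not pass the same thresholds with edgeR on the counts (6 loci, 0.0141%) and passed with DESeq2 (99 loci, 0.233%). Of the 2557 loci tested on chromosome 7, it was the only one that passed limma. There 1 other locus passed with edgeR, and 5 loci, *Smagp* included, passed with DESeq2. The counts for chromosome 7 likewise only place the gene, since the same contrast chose it.

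The fragment on the opposite strand inside *Smagp* did not share the difference in size. It had 393, 347 and 466 counts in normal and 427, 233 and 252 counts in diabetic replicates 1, 2 and 3. In FPKM it stood at 2.32, 2.11 and 2.66 against 2.29, 1.74 and 1.82, so diabetic replicate 1 lay within the normal range and the groups overlapped. The log2 fold change was −0.18 (95% interval −0.51 to 0.15, limma adjusted p 0.953). Against *Smagp* itself, the counts of this fragment were 15.2% to 20.1% in normal and 31.2% to 42.8% in diabetic libraries. Neither the labels nor the methods state whether the libraries kept strand, so reads of a locus and of its opposite-strand partner may not be fully told apart.

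*Dazap2*, which encodes a small proline-rich protein, lies on the plus strand and runs toward *Smagp*, and the ends of both loci overlap by 4 bases. It is the most abundant locus of the window. It stood at 53.1, 52.9 and 57.1 FPKM in normal and at 57.6, 49.2 and 51.7 FPKM in diabetic replicates 1, 2 and 3. The groups overlapped, and the log2 fold change was −0.03 (95% interval −0.28 to 0.21, limma adjusted p 0.986). Within each library, *Smagp* counts were 21.7%, 22.6% and 19.9% of *Dazap2* counts in normal and 8.02%, 9.77% and 8.04% in diabetic replicates 1, 2 and 3. This ratio uses no scaling between libraries, and its groups did not overlap either. Inside *Dazap2* a minus-strand fragment without an annotated type (MSTRG.41966) lies 1379 bases past the 3′ end of *Smagp*. It stood at 4.66, 4.73 and 4.38 FPKM in normal and 3.92, 4.35 and 3.49 FPKM in diabetic libraries, lower without overlap by a small margin. Its log2 fold change was −0.17 (95% interval −0.45 to 0.12, limma adjusted p 0.953).

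**Figure D2:**
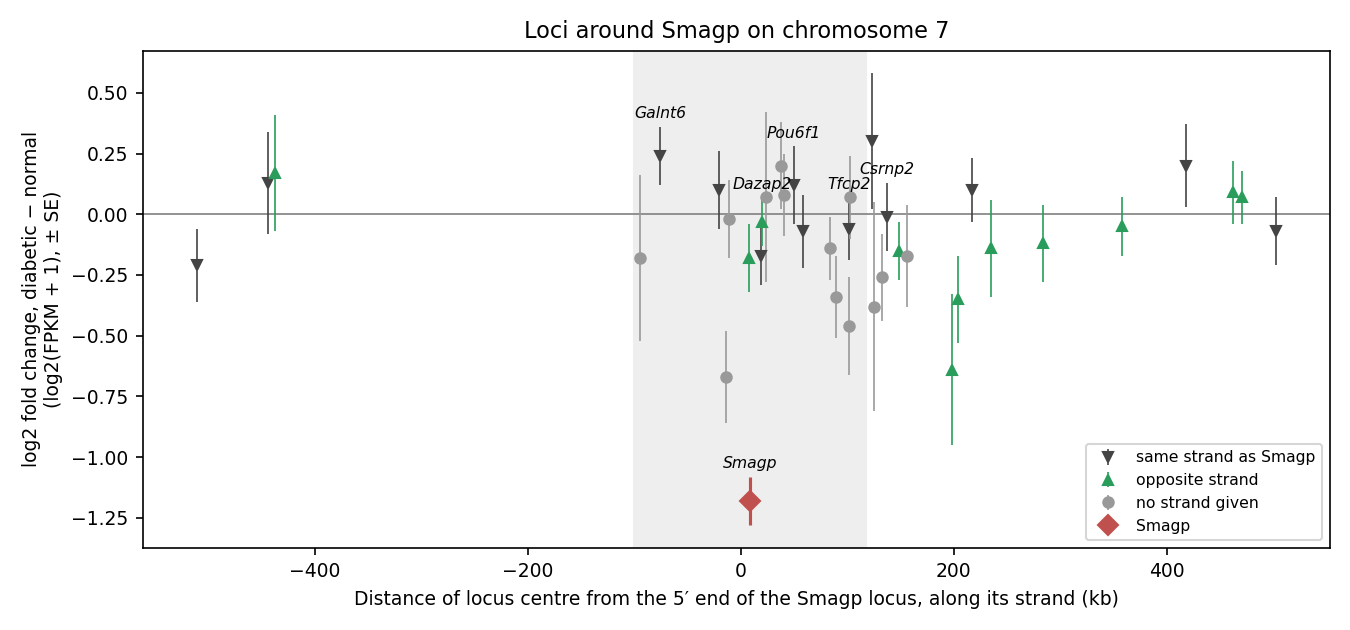
Log2 fold change (diabetic minus normal, log2(FPKM + 1), ± limma SE) of each tested locus within 500 kb of *Smagp* against its distance from the 5′ end of *Smagp*, with strand shown by marker; the shaded band is the 100 kb window. *Smagp* lies at −1.18, and its neighbours within 100 kb lie between −0.67 and 0.24.

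Farther along on the side of the 3′ end lie a pair of transcription factor genes on the same strand as *Smagp*. *Pou6f1*, a POU homeodomain factor, stood at 2.04, 1.43 and 2.10 FPKM in normal and 1.78, 2.00 and 2.42 FPKM in diabetic replicates 1, 2 and 3 (log2 fold change 0.12, SE 0.16). A second fragment named *Pou6f1* on the same strand, without an annotated type, had a log2 fold change of −0.07 (SE 0.15). *Tfcp2*, a factor of the grainyhead-related family, stood at 2.87, 3.31 and 3.56 FPKM against 3.07, 2.64 and 3.42 FPKM (log2 fold change −0.06, SE 0.13). Neither gene separated the groups. The 4 fragments without a strand inside *Tfcp2* had log2 fold changes from −0.46 to 0.07, and all of them overlapped between the groups. The 3 unnamed fragments between *Pou6f1* and *Dazap2* had values from 0.07 to 0.20, again with overlap. The only one of them with a mean of at least 50 counts, MSTRG.41962, stood at 1.51, 1.70 and 2.34 FPKM in normal and 1.88, 1.55 and 2.56 FPKM in diabetic libraries.

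On the side of the 5′ end, *Galnt6* encodes an enzyme that adds the first sugar of mucin-type O-glycans. It stood at 2.21, 2.50 and 2.48 FPKM in normal and 2.80, 2.80 and 3.31 FPKM in diabetic replicates 1, 2 and 3. All diabetic values lay above the normal ones, opposite to *Smagp*, with a log2 fold change of 0.24 (95% interval −0.04 to 0.52), and the gene did not pass (limma adjusted p 0.953). *Bin2*, which encodes a membrane-shaping protein of blood-derived cells, stood at 0.350 to 0.522 FPKM in normal and 0.413 to 0.492 FPKM in diabetic libraries, under the filter of a mean of 0.5 FPKM. *Cela1*, a serine protease gene, had 0 to 6 counts in normal and 0 to 8 counts in diabetic libraries. A lincRNA locus named AABR07058907 was at 0 counts in 5 libraries and at 2 in diabetic replicate 3. These 3 loci were not tested. A miRNA locus that carries the same name inside *Bin2* held 8 to 13 counts per library. Its log2 fold change was 0.10 (SE 0.16) with limma and 0.13 with a far wider SE of 0.96 with DESeq2. The unnamed fragment MSTRG.41974 beyond *Galnt6* had 64, 14 and 109 counts in normal and 60, 23 and 33 counts in diabetic libraries (log2 fold change −0.18, SE 0.34).

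The neighbour with the lowest log2 fold change and the one closest to *Smagp* in size was a fragment without strand or annotated type inside *Bin2* (MSTRG.41971). It had 36, 54 and 60 counts in normal and 27, 19 and 13 counts in diabetic replicates 1, 2 and 3. In FPKM it stood at 1.42, 2.24 and 2.34 against 0.967, 0.943 and 0.607, without overlap, and the diabetic mean was 42.0% of the normal one, against 38.8% at *Smagp*. On the log2(FPKM + 1) scale, which understates changes at such low FPKM, the log2 fold change was −0.67 (95% interval −1.12 to −0.22), the unadjusted limma p was 0.00898, and the adjusted p over all loci was 0.953 with limma, 0.991 with edgeR and 0.998 with DESeq2. The log2 fold change was −1.11 (SE 0.33) with a pseudocount of 0.1, −1.17 with edgeR and −1.17 (SE 0.60) with DESeq2, where *Smagp* stood at −1.33, −1.34 and −1.33. The fragment holds few counts, and a difference as large as that of *Smagp* lies within its error with the pseudocount of 0.1 and with DESeq2. No SE was computed for the edgeR value. The second fragment named *Bin2* (MSTRG.41969) stood at 1.67 to 2.11 FPKM in normal and 1.59 to 2.28 FPKM in diabetic libraries.

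**Figure D3:**
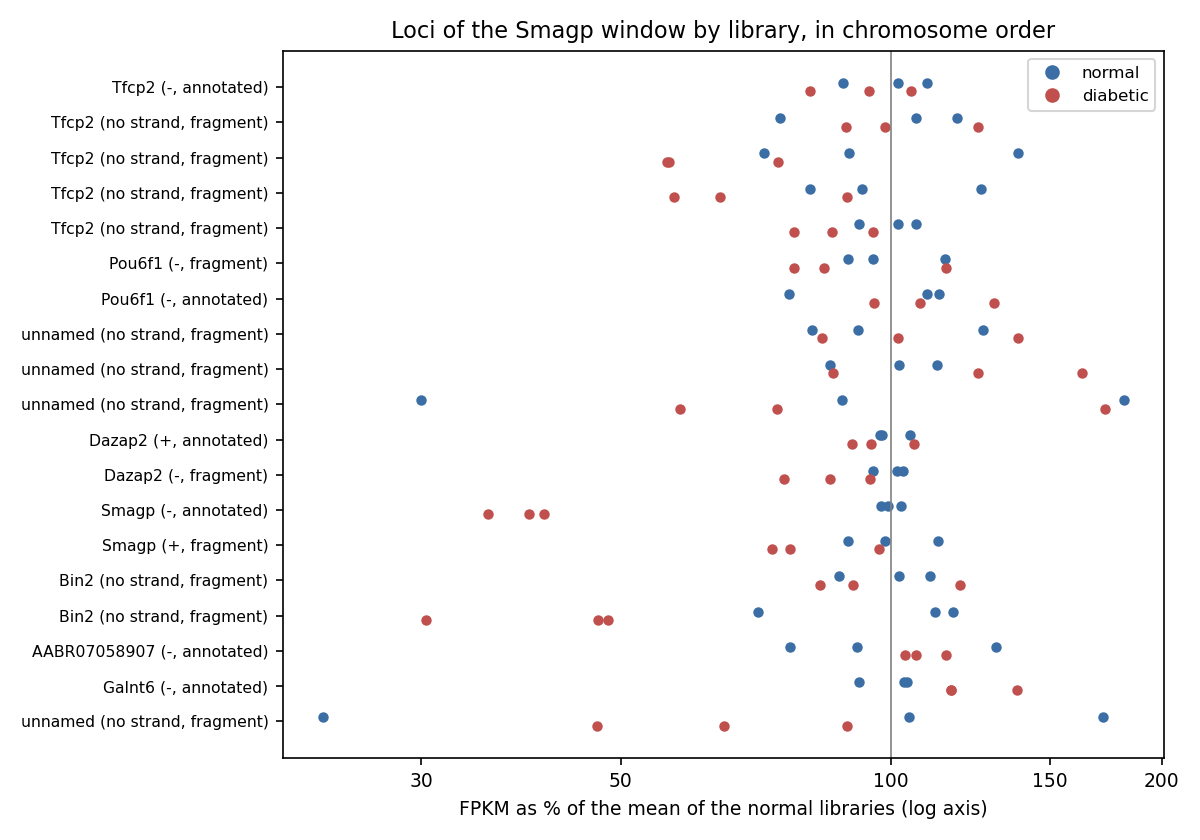
FPKM of each tested locus of the window as a percentage of its mean over the normal libraries (log axis), in chromosome order; each point is 1 library. The diabetic points of the annotated *Smagp* locus sit apart from the normal ones, and those of *Dazap2* on the other strand do not.

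Counted together, 18 of the 21 neighbours reached the filter, 11 with a negative log2 fold change, where 51% of all loci had one, and 7 with a positive one. Their median was −0.05, and the median of all loci tested was 0. None of the 18 passed with limma, edgeR or DESeq2, where 0.0259%, 0.0141% and 0.233% of all loci passed, so a count of 0 among 18 loci is close to the background. At an unadjusted p under 0.05 there was 1 neighbour with limma, 1 with edgeR and 0 with DESeq2, against 4.80%, 4.14% and 4.99% of all loci. All diabetic FPKM lay below all normal FPKM at 2 neighbours, or 11.1%, against 5.72% of all loci, and above them at 1 neighbour against 3.94% of all loci. On the log2(FPKM + 1) scale the 95% limma intervals of all 18 neighbours lay above the value of *Smagp* (−1.18). Of these intervals, 17 included 0. At loci of low FPKM the first count depends on the pseudocount. With a pseudocount of 0.1, MSTRG.41971 stood at −1.11 (SE 0.33), MSTRG.41974 at −0.16 (SE 0.68) and MSTRG.41964 at 0.24 (SE 0.69). The value of *Smagp* on that scale, −1.33, lay within the 95% error of MSTRG.41971 and MSTRG.41974. It lay near the edge of that of MSTRG.41964. With DESeq2 the *Tfcp2* fragment MSTRG.41957 stood at −0.65 (SE 0.47), MSTRG.41974 at −0.53 (SE 0.74) and MSTRG.41971 at −1.17 (SE 0.60). MSTRG.41964 stood at 0.11 (SE 0.94) and the miRNA locus at 0.13 (SE 0.96). The DESeq2 value of *Smagp*, −1.33, lay within the 95% error of each of these. By strand, the 6 tested neighbours on the strand of *Smagp* had log2 fold changes from −0.17 to 0.24. The 2 on the opposite strand had −0.18 and −0.03, and the 10 without a strand had −0.67 to 0.20. The summed counts of all 21 neighbours made up 222, 223 and 248 CPM in normal and 231, 206 and 231 in diabetic replicates 1, 2 and 3.

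*Smagp* was also set beside 17 other genes of membrane proteins at epithelial cell contacts. In normal libraries its mean FPKM was the 11th highest of the 18, between *Alcam* (13.7 ± 1.36 FPKM, SD, n = 3) and *Nectin2* (8.48 ± 1.90 FPKM), adhesion molecules of the immunoglobulin family. In diabetic libraries it was the 14th, between *Mpzl3* (7.38 ± 0.902 FPKM) and *Cadm4* (4.39 ± 1.58 FPKM), and its difference from *Cadm4* was smaller than the spread of the latter. The other 17 genes had log2 fold changes from −0.45 to 0.19 with a median of −0.02, 9 negative and 8 positive. The groups overlapped for all 17, and none passed with limma, edgeR or DESeq2, nor reached an unadjusted p under 0.05 with any of them. Over all loci 0.0259%, 0.0141% and 0.233% passed, 4.80%, 4.14% and 4.99% had such an unadjusted p, and 5.72% and 3.94% had all diabetic values below or above the normal ones, so counts of 0 among 17 genes are close to the background. The smallest limma p belonged to *Cadm4*, which stood at 6.62, 5.85 and 6.15 FPKM in normal and 6.18, 3.18 and 3.81 FPKM in diabetic replicates 1, 2 and 3 (log2 fold change −0.45, SE 0.19, limma adjusted p 0.953). *Cadm1*, a relative of *Cadm4*, followed with 6.19 to 8.51 FPKM against 7.20 to 10 FPKM. *Nectin3*, a nectin of adherens junctions, stood at 0.904 to 1.25 FPKM against 0.824 to 1.73 FPKM.

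**Figure D4:**
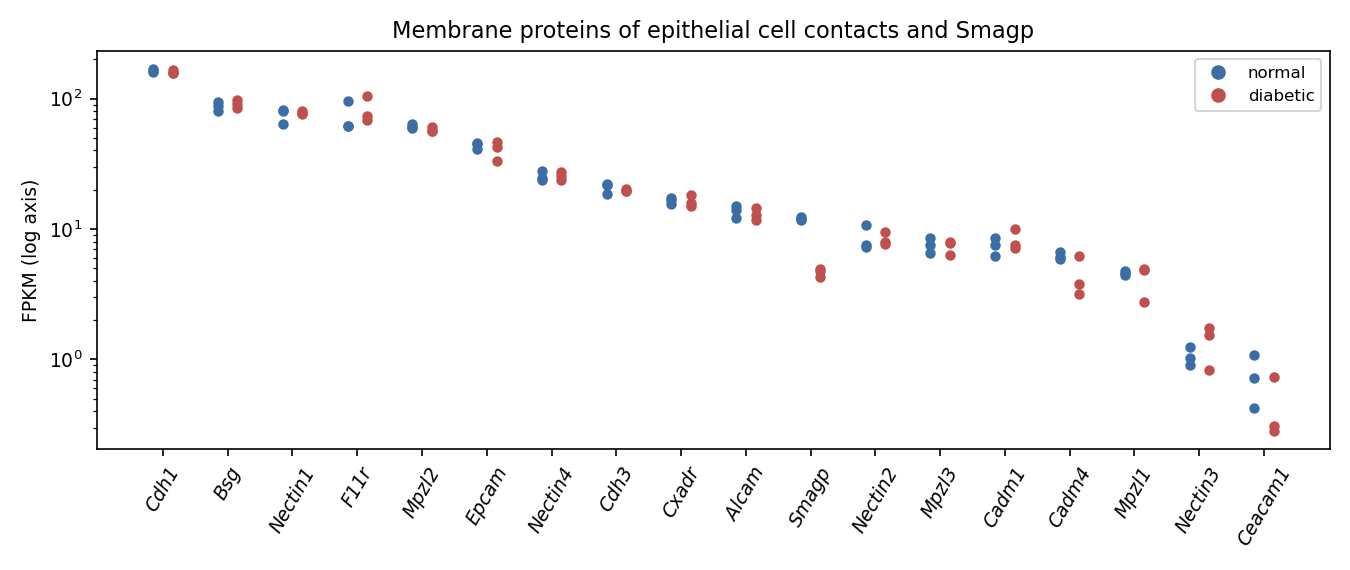
FPKM (log axis) of *Smagp* and 17 genes of membrane proteins at epithelial cell contacts, ordered by the normal mean; each point is 1 library. *Smagp* is the gene whose normal and diabetic points do not overlap.

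The membrane skeleton of glycophorin C, protein 4.1 and spectrin anchors small membrane glycoproteins in red cells and lies under the lateral membrane of epithelia. Of 16 genes of this list 15 were found, and all 15 reached the filter, 9 with a positive and 6 with a negative log2 fold change (median 0.14). None passed with limma, edgeR or DESeq2, where 0.0259%, 0.0141% and 0.233% of all loci did. At an unadjusted p under 0.05 there was 1 gene with limma, 2 with edgeR and 3 with DESeq2, against 4.80%, 4.14% and 4.99% of all loci. All diabetic FPKM lay above the normal ones at 3 of these genes (3.94% of all loci) and below them at 1 (5.72%). The beta spectrin gene *Sptbn1* stood at 25.9, 23.5 and 25.1 FPKM in normal and 29.6, 27.8 and 35.2 FPKM in diabetic replicates 1, 2 and 3 (log2 fold change 0.32, SE 0.13, limma adjusted p 0.953). *Ank3*, the ankyrin of lateral membranes, stood at 2.91 to 3.68 FPKM against 3.07 to 5.09 FPKM. *Epb41l4a*, of the protein 4.1 family, stood at 2.57 to 3.06 FPKM against 3.19 to 3.51 FPKM. *Gypc*, *Epb41l5* and *Add1* lie on loci whose names join several genes, so their values are uncertain.

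The genes most like *Smagp* over the 6 libraries were found by Pearson correlation of quantile-normalized log2(FPKM + 1) among 13264 single-name annotated loci. The r values describe 6 points that mostly part into the same groups, and no test was applied. *N4bp3*, a partner of the ubiquitin ligase NEDD4, was the most alike (r = 0.992), with 3164, 2936 and 2512 counts in normal libraries and 0 in each diabetic one. *Kcmf1*, a ubiquitin ligase gene, followed (r = 0.988) with 3.89, 4.15 and 4.25 FPKM against 2.84, 2.94 and 2.73 FPKM. *Ppme1*, the gene of a methylesterase of protein phosphatase 2A, stood at 7.75, 7.22 and 8.10 FPKM against 3.58, 3.53 and 3.71 FPKM (r = 0.985). *Kmt5b*, a histone methyltransferase gene, stood at 5.55, 5.56 and 5.62 FPKM against 5.21, 5.0 and 5.18 FPKM (r = 0.984). It parted into the same groups at a far smaller difference, with another order of libraries within each group. A short locus named AABR07044574 had 9, 12 and 8 counts against 1, 0 and 0 (r = 0.980). In all 24 loci, or 0.181%, had an r of at least 0.95. Among the annotated neighbours, r with *Smagp* was 0.24 for *Tfcp2*, −0.47 for *Pou6f1*, 0.12 for *Dazap2*, −0.31 for the miRNA locus and −0.92 for *Galnt6*.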

How the data were processed

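Per the labels, the authors used cutadapt, FastQC and Bowtie2 with the rat build rn6; neither their versions nor the counting program could be taken from the sources used here. The authors deposited raw counts and FPKM per locus for each library, and FPKM at a count of 0 (86380 values) were set to 0. For the 42551 loci whose FPKM averaged 0.5 or more, log2(FPKM + 1) was brought to the same quantiles in all libraries and tested with limma 3.58.1 (eBayes with trend, R 4.3.3, Benjamini-Hochberg adjustment over all of them), after the study's use of limma and its threshold of a fold change over 1.2. edgeR 4.0.16 (quasi-likelihood) and DESeq2 1.42.0 were run on the counts of these loci. All 3 functions were tested on simulated data. *Smagp* itself was left out of counts over the window. Intervals are limma's, and FPKM ± SD are over 3 libraries.

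Named are *Smagp*, the window loci with a name (others at a mean of at least 50 counts in 1 group), the 5 most correlated single-name annotated loci and up to 3 genes of smallest p per list. Among loci of 1 name the annotated one was used. The gene, the lists and these rules were chosen with earlier results of these data known. Of the markers *Col1a2* and *Muc5ac*, and of the membrane skeleton list *Mpp1*, were not analysed here. Some listed genes are not reported here. Promoter sequences are from RefSeq (GRCr8) and were matched by symbol for *Smagp* and *Galnt6*. Figures were made in Python 3.11.15 with matplotlib 3.10.9.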

Additional observations from a re-analysis of the deposited data

How the results depend on the processing

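The log2 fold change of *Smagp* was −1.33 with a pseudocount of 0.1, −1.34 with edgeR, −1.33 with DESeq2 and −1.34 as a ratio to the coding neighbours within each library. The smaller size on the log2(FPKM + 1) scale follows from its pseudocount. With other normalizations, filters, eBayes without trend or annotated loci alone it ran from −1.20 to −1.18, and without 1 library from −1.23 to −1.13. No neighbour passed under any of these settings or in windows of 50, 250 and 500 kb. In the limma fit of all 6 libraries described above, 1 neighbour (MSTRG.41971) had an unadjusted p under 0.05 at the same fold. The loci passing in the whole series numbered 6 with a pseudocount of 0.1, 3 without a filter, 6 with edgeR, 99 with DESeq2, 3 among annotated loci alone and 5 to 12 without 1 library (7 without diabetic replicate 1, 5 without diabetic replicate 2 or 3). The numbers of the labels did not pair the libraries (correlations of deviations −0.01, 0.03 and 0.03), and with the replicate block *Smagp* stood at −1.18 and 1 locus of the series passed. The cause of these changes in count was not tested.

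Without 1 library the sign of some uncalled neighbours changed: the values ran from −0.12 to 0 for *Tfcp2*, −0.08 to 0.18 for its fragment MSTRG.41956, −0.03 to 0.19 for MSTRG.41962 and −0.20 to 0.36 for MSTRG.41964. They ran from −0.06 to 0.03 for *Dazap2*, −0.14 to 0.08 for the *Bin2* fragment MSTRG.41969 and −0.56 to 0.11 for MSTRG.41974. Loci with under 100 counts per library carried wide errors with DESeq2, such as an SE of 0.96 for the miRNA locus and 0.94 for MSTRG.41964. Small differences there are therefore not detectable at this depth. Their limma SE on the log2(FPKM + 1) scale, 0.16 and 0.35, is narrower and does not show this.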
